A study of Mus musculus with 6 samples.

Results

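Interferon-stimulated genes are the genes that cells switch on when an interferon binds its receptor, and their RNA was compared here between Runx1-null and Runx1-WT luminal mammary epithelial cells (MECs). The members were a list of 37 genes of this response, each taken through probe sets that the array annotation gives to that gene alone, with the brightest probe set standing for the gene. Of these, 35 were found among the 18194 genes with such a probe set, and 31 of the 35 had a mean intensity above the filter that left 12152 genes to be tested. Oas2, Oas3, Mx1 and Mx2 were below that filter, the probe set of Isg15 is shared with another gene and was not used, and Ifi44 was not analysed here.

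The cells came from thoracic and inguinal glands of adult virgin females on a mixed B6/129/FVB background. Runx1-null mice were MMTV-Cre;Runx1L/L;R26Y and Runx1-WT mice were MMTV-Cre;Runx1+/+;R26Y, with 3 mice per genotype and 1 array per mouse. Cre and the R26Y reporter were thus present in both genotypes, and the genotype labels differed only in the floxed Runx1 alleles (Runx1L). Other strain differences between mice of a mixed background are not given by the labels and were not tested. Cells with YFP, the reporter that Cre switches on, were sorted as luminal MECs (Lin-CD24+CD29lo, where Lin stands for CD31, CD45 and TER119). MMTV-Cre acts in much of the mammary epithelium and also in part of the basal cells, and YFP reports recombination of R26Y, not of Runx1.

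Type I interferons act through the receptor chains IFNAR1 and IFNAR2 and the kinases JAK1 and TYK2, which lead to a complex with STAT2 and IRF9 (ISGF3) that binds the interferon-stimulated response element (ISRE). Interferon gamma acts through IFNGR1 and IFNGR2 on genes with a gamma-activated site (GAS) and induces IRF1, itself a factor that binds ISREs. Epithelial cells, those of the mammary gland included, express a basal level of many of these genes without infection, and the products sense viral RNA, degrade it, block the entry or release of viruses, or modify proteins with the ubiquitin-like protein ISG15.

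The promoters of 5 members are shown because they hold letters of the ISRE or GAS and belong to genes described below. The 120 bases before the annotated start are given 5′ to 3′ on the gene's strand, from RefSeq on GRCm38.p6, with each ISRE-like match (GAAA, any 2 bases and GAAA again, on either strand) or GAS-like match (TTC, any 3 bases and GAA, which reads as the same pattern on both strands) in capitals. The windows lie at chr11:53769894-53770013 (plus strand) for Irf1, chr3:142620543-142620662 (plus) for Gbp2, chr11:58199436-58199555 (plus) for Igtp, chr12:26456453-26456572 (minus) for Rsad2 and chr19:34640769-34640888 (plus) for Ifit1.
Irf1: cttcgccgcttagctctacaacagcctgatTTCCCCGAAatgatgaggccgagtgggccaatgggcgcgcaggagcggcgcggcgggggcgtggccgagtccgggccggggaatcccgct
Gbp2: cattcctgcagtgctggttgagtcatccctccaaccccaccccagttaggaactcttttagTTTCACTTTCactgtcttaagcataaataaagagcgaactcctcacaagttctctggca
Igtp: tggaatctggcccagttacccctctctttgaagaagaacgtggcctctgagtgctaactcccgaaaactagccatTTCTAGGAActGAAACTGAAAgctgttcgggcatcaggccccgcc
Rsad2: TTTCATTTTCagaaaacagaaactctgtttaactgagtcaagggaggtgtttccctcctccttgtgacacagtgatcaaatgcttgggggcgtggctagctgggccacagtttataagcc
Ifit1: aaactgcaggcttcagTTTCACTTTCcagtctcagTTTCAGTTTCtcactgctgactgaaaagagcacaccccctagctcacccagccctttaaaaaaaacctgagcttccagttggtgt
The Irf1 window holds a GAS-like match from -90 to -82, Gbp2 an ISRE-like match from -59 to -50, and Igtp both kinds, the GAS-like one from -45 to -37 and the ISRE-like one from -34 to -25. In Rsad2 the ISRE-like match lies from -120 to -111, and Ifit1 has an ISRE-like pair, from -104 to -95 and from -85 to -76. Among the 33 RefSeq windows of 29 members (250 bases before to 50 after the start, several starts for some genes), 14 held the ISRE-like letters, or 42.4%, against 3.44% of all 32851 windows in the table. The GAS-like letters were in 7 of the 33, or 21.2%, against 8.3% of all windows. A match is only a description of the letters in the window, and 8 members (Iigp1, Mx1, Mx2, Oas2, Parp14, Parp9, Rtp4 and Usp18) had no window.

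The array values are linear intensities. Sorting left the luminal epithelial markers high, with a summed intensity of 7 such genes (Krt8, Krt18, Krt19, Epcam, Cd24a, Cldn3 and Cldn7) of 68155 to 70653 in the Runx1-WT mice, against 68892 to 75658 in the Runx1-null mice. The summed intensity of 18 leukocyte markers was 1779, 1868 and 7288 in Runx1-WT mice 1, 2 and 3 and 2442, 1475 and 2776 in Runx1-null mice 1, 2 and 3, so that Runx1-WT mouse 3 stood apart from the other 5 mice, although CD45+ cells are removed by the Lin gate. Ptprc, which encodes CD45, read 205 in that mouse and 18.3 to 47.4 in the other 5. Cd3e, a T cell gene, read 294 there and 22.0 to 46.5 elsewhere, and Lyz2, a myeloid gene, 1894 and 269 to 569. Not all the markers followed this order. Csf1r was lowest in that mouse, at 155 against 194 to 321 elsewhere. Cd4, Itgam and Cd68 were highest in Runx1-null mice 1, 2 and 3, at 39.3, 22.7 and 449. None of the 18 was below the floor of 19.335 in every mouse. Endothelial markers were also unequal, with sums of 1392 to 1640 in Runx1-WT mice against 813 to 1269 (two-sided exact permutation p = 0.1, which no comparison of 3 mice with 3 can go below). All 7 of them had a log2 difference below 0, as did all 7 stromal fibroblast markers, whose sums were 11777 to 13746 in Runx1-WT mice and 10792, 12234 and 4668 in Runx1-null mice 1, 2 and 3 (exact permutation p = 0.2). Of the luminal subsets, all 5 progenitor markers were above 0, with sums of 16693 to 23204 against 22020 to 24271 (exact permutation p = 0.2). For mature luminal markers, 3 of 4 were below 0, Cited1 by the most at -1.17 ± 0.40. Their sums were 15406 to 24295 against 13104 to 19326 (exact permutation p = 0.3), with 15406 in Runx1-WT mouse 3. The sums of 8 basal and myoepithelial markers were 6599, 4942 and 10695 in Runx1-WT mice 1, 2 and 3 and 13128, 12804 and 4760 in Runx1-null mice 1, 2 and 3 (exact permutation p = 0.6), with 3 of the 8 below 0. In bulk RNA, fewer cells of a type and less RNA per cell cannot be told apart. The 3′ minus 5′ log2 difference of the Gapdh control probe sets, a sign of RNA quality, was 0.46 to 0.47 in Runx1-WT mice against 0.47 to 0.61, without overlap before rounding (exact permutation p = 0.1), while that of beta-actin overlapped, at 0.50 to 0.52 against 0.44 to 0.74 (exact permutation p = 0.8). The part of leukocyte, endothelial, stromal and basal RNA, of the luminal subsets and of RNA quality in the members' differences was not tested. The brightest probe set of Runx1 read 4082, 3855 and 2015 in Runx1-WT mice against 3473, 4820 and 2277, and all 6 Runx1 probe sets overlapped between genotypes. Where they lie relative to the deleted part was not analysed here, so Runx1 gives no check of the labels.

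Most members read lower in Runx1-null cells, by small amounts. Of the 31 members above the filter, 28 had a log2 difference (Runx1-null minus Runx1-WT) below 0, with a median of -0.23 and a range from -0.69 (Gbp2) to 0.59 (Ifit2), beside a median of -0.02 and 55.4% below 0 over all 12152 genes. Counting the 4 dim members too, 32 of 35 were below 0 (58.1% of all 18194 genes) and the median was -0.23. In limma, 0 members were called at an adjusted p under 0.05, and 0 of all 12152 genes (0%), and every member's adjusted p was 1. At an unadjusted p under 0.05 limma gave 3 members, Gbp2, Xaf1 and Dtx3l, all lower in Runx1-null mice, beside 1.28% of all genes lower and 0.642% higher. The 3 Runx1-null values all lay under the 3 Runx1-WT values for 7 members (Irf9, Irf1, Oasl2, Gbp2, Dtx3l, Xaf1 and Lgals3bp), or 22.6%, where 3.47% of all genes did so. No member lay wholly above, against 2.08% of all genes.

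**Figure D1:**
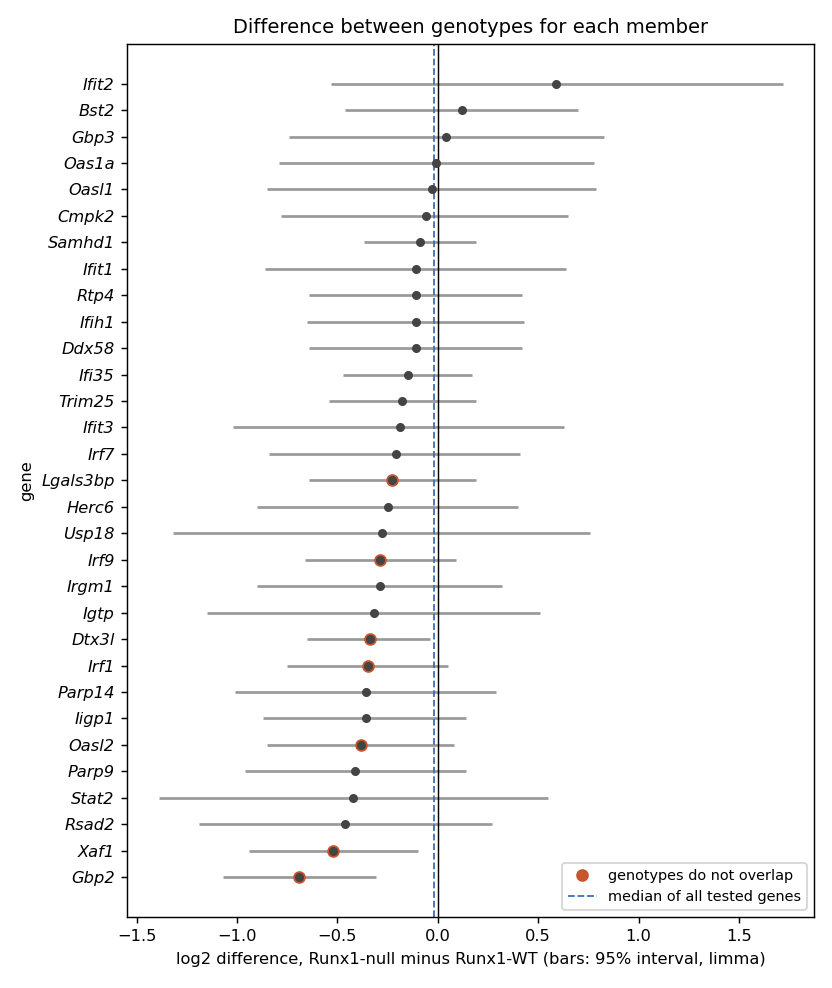
Log2 difference in intensity between Runx1-null and Runx1-WT luminal MECs for the 31 members above the filter, with 95% limma intervals as bars (n = 3 mice per genotype). Of the points, 28 lie left of 0, the intervals of Gbp2, Xaf1 and Dtx3l alone leave 0 out, and the dashed line marks the median of all tested genes at -0.02.

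The count of separated members depended on how the arrays were scaled. After quantile normalization 25 of 31 were below 0, with a median of -0.16 (all genes 0.02, with 46.5% below 0), and 5 members (Irf1, Oasl2, Gbp2, Dtx3l and Xaf1) were lower without overlap, against 2.58% of all genes, and 0 were higher, against 2.84%. After scaling each array to the same median, 24 were below 0, with a median of -0.13 (all genes 0.07, with 35.3% below 0), and only Dtx3l and Xaf1 were lower without overlap, against 1.17% of all genes, and 0 were higher, against 2.31%. The distance of the members' median from that of all genes was -0.20 as deposited, -0.18 after quantile normalization and -0.20 after median scaling.

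The members varied from mouse to mouse within a genotype as well as between genotypes. The median deviation of the 31 members from their own mean over the 6 mice, on the log2 scale, was 0.20, -0.09 and 0.30 in Runx1-WT mice 1, 2 and 3 and -0.15, -0.11 and 0.04 in Runx1-null mice 1, 2 and 3. These per-mouse medians overlapped, since Runx1-WT mouse 2 lay below Runx1-null mouse 3. Runx1-WT mouse 3, the mouse with the high leukocyte markers, had the highest value for 18 members, or 58.1%, against 24.5% of all genes, and Runx1-WT mouse 1 for 9, or 29%, against 19.1%. Runx1-null mouse 1 was lowest for 11 members, or 35.5%, against 23.9% of all genes. Within a genotype, the members' median SD of log2 values was 0.32 in Runx1-WT and 0.24 in Runx1-null mice, where all genes had 0.24 in both, and the Runx1-WT SD was the larger for 20 of the 31 members, against 49% of all genes.

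**Figure D2:**
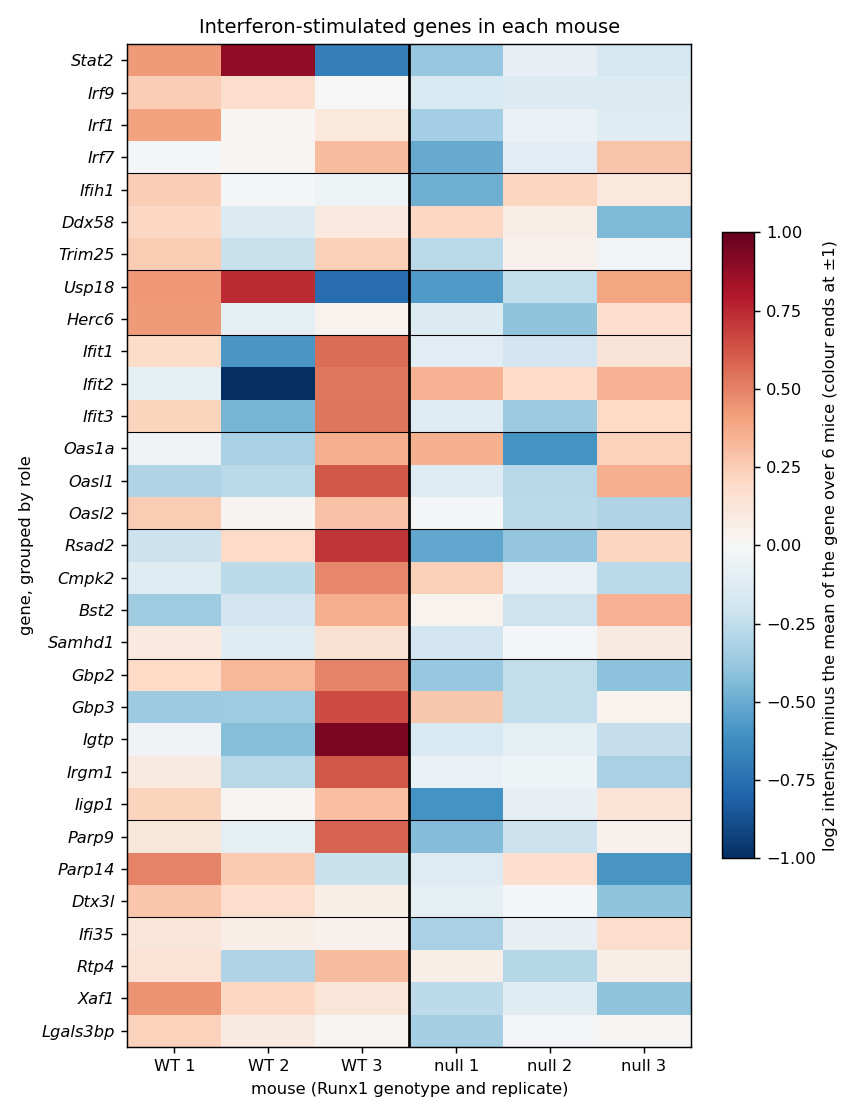
Log2 intensity of each of the 31 members minus its mean over the 6 mice, by mouse (columns) and grouped by role (rows), with red above and blue below the gene's mean. Runx1-WT mouse 3 is the highest mouse in 18 rows, and Runx1-null mouse 1 the lowest in 11.

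Without Runx1-WT mouse 3, 21 of 31 members were below 0, against 51.5% of all genes, and the median was -0.17. The 2 remaining Runx1-WT mice and the 3 Runx1-null mice did not overlap for 12 members. Of these, 10 were lower in Runx1-null mice (Stat2, Irf9, Irf1, Usp18, Oasl2, Gbp2, Parp14, Dtx3l, Xaf1 and Lgals3bp), or 32.3%, against 13.3% of all genes, and Ifit2 and Gbp3 were higher, where 12.4% of all genes were. Dropping a mouse cannot end a separation, so the size of the difference without Runx1-WT mouse 3 is given with the genes it moves. Without Runx1-WT mouse 2, 28 members were below 0 (63.1% of all genes), the median was -0.29 and 16 members, or 51.6%, were lower without overlap, against 9.87% of all genes, with 0 higher, against 4.01%. Leaving out Runx1-null mouse 3 put 27 members below 0 (50.1% of all genes), with a median of -0.28, and 13 members, or 41.9%, were lower without overlap, against 10.2% of all genes, with 0 higher, against 9.69%.

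**Figure D3:**
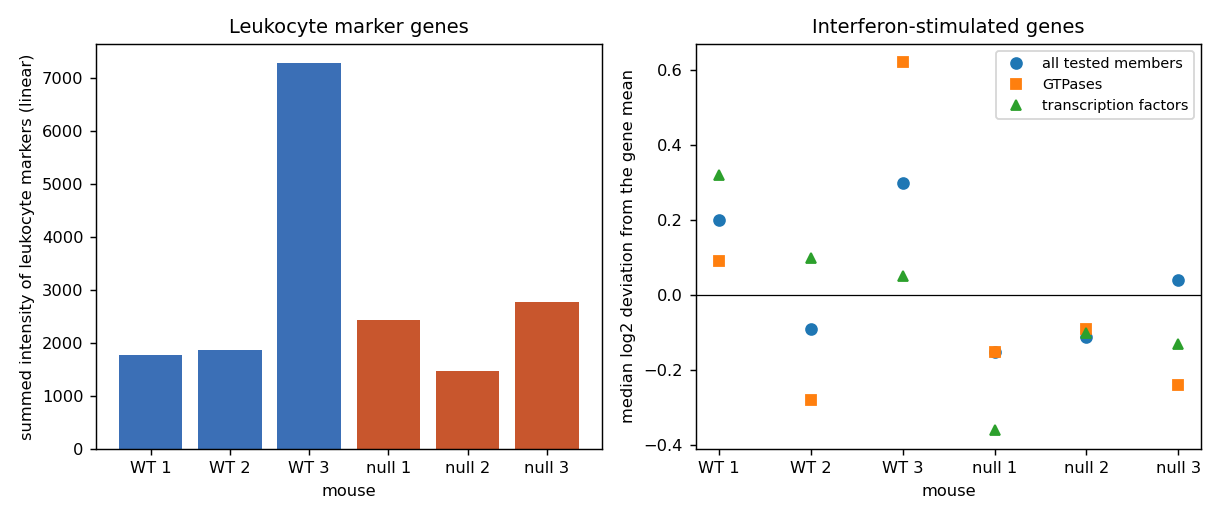
Left, summed linear intensity of 18 leukocyte markers in each mouse, with 7288 in Runx1-WT mouse 3 and 1475 to 2776 in the other 5. Right, median log2 deviation from the gene mean over all 31 members, the 5 interferon-inducible GTPases and the 4 transcription factors, with the GTPases at 0.62 and the factors at 0.05 in Runx1-WT mouse 3.

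The 4 transcription factors among the members were lower in Runx1-null cells on average, at a median log2 difference of -0.32 (4 of 4 below 0). The direction held in all 3 scalings and without any 1 mouse. Of 5 other IRF genes, which are not members (Irf2, Irf3, Irf4, Irf5 and Irf8), 1 was below 0 and 4 above, with a median of 0.09. Irf1, the interferon gamma-induced factor whose promoter holds the GAS-like match shown above, read 2239, 1724 and 1822 in the Runx1-WT mice and 1339, 1623 and 1562 in the Runx1-null mice. Every Runx1-null mouse was thus below every Runx1-WT mouse, with the closest pair 1623 and 1724. The log2 difference was -0.35 ± 0.17 (SE, n = 3 per genotype), with a 95% limma interval of -0.75 to 0.05 and an exact permutation p of 0.1.

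Irf9, the DNA-binding subunit of ISGF3, read 1182, 1127 and 997 in the Runx1-WT mice and 894, 905 and 906 in the Runx1-null mice. The genotypes did not overlap, and the Runx1-null mice were nearly alike, at 902 ± 6.27 (SD, n = 3) against 1102 ± 95. Its log2 difference of -0.29 ± 0.16 had a 95% limma interval of -0.66 to 0.09 (exact permutation p = 0.1). After median scaling neither Irf1 nor Irf9 was free of overlap, at differences of -0.26 and -0.19.

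Of the 4 factors, Stat2, which joins IRF9 in ISGF3, varied most on the log2 scale within Runx1-WT mice, at 339, 468 and 157, and read 194, 238 and 225 in Runx1-null mice. Runx1-WT mouse 3 was the lowest of all 6, unlike its place for most members, and the log2 difference moved from -0.42 ± 0.41 (exact permutation p = 0.5) to -0.87 without that mouse and to -0.08 without Runx1-WT mouse 2. A second probe set of Stat2 gave -0.30 ± 0.36. For Irf7, which amplifies type I interferon output, the intensities were 322, 332 and 408 in the Runx1-WT mice and 231, 304 and 399 in the Runx1-null mice. These overlapped, with Runx1-null mouse 3 close to the highest value, and the log2 difference was -0.21 ± 0.26 (exact permutation p = 0.4).

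The interferon-inducible GTPases, which attack the membranes around intracellular microbes, had a median log2 difference of -0.32 over 5 genes, with 4 below 0 and the smallest unadjusted p of the list in Gbp2. Gbp2, a guanylate-binding protein, read 1409, 1542 and 1734 in the Runx1-WT mice and 944, 1034 and 925 in the Runx1-null mice. The lowest Runx1-WT mouse was well above the highest Runx1-null mouse, and the means were 968 ± 57.7 in Runx1-null and 1562 ± 164 in Runx1-WT mice (SD, n = 3). The difference of mean log2 values put the Runx1-null level at 62.1% of the Runx1-WT level. On the log2 scale this was -0.69 ± 0.16, with a 95% limma interval of -1.07 to -0.31 (limma, unadjusted p = 0.00371, adjusted p = 1). The exact permutation p was 0.1. Without Runx1-WT mouse 3 the difference was -0.61, and after median scaling it was -0.60, where the genotypes overlapped. The second Gbp2 probe set gave -0.47 ± 0.21 and overlapped, with Runx1-null mouse 1 at 1167 against Runx1-WT mouse 1 at 1158. Guanylate-binding proteins are a family of similar genes, and hybridization to one another's probes was not tested.

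Iigp1, an immunity-related GTPase, read 2390, 2082 and 2530 in the Runx1-WT mice and 1356, 1935 and 2248 in the Runx1-null mice. Only Runx1-null mouse 3 reached into the Runx1-WT range, and the log2 difference was -0.36 ± 0.21 (exact permutation p = 0.2). Igtp, whose promoter holds both motifs, read 720, 551 and 1424 in the Runx1-WT mice and 666, 695 and 626 in the Runx1-null mice. The Runx1-null mice lay between Runx1-WT mice 1 and 2, and the difference of -0.32 ± 0.35 came with 1424 in Runx1-WT mouse 3. Irgm1 was likewise highest in Runx1-WT mouse 3, at 953, 740 and 1378 against 854, 868 and 717, with a log2 difference of -0.29 ± 0.26. Gbp3 read 305, 307 and 618 against 474, 331 and 403, so that without Runx1-WT mouse 3 it was higher in every Runx1-null mouse. Without that mouse the GTPase median was -0.05 with 3 of 5 below 0, and the part of leukocyte RNA in these values was not tested.

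**Figure D4:**
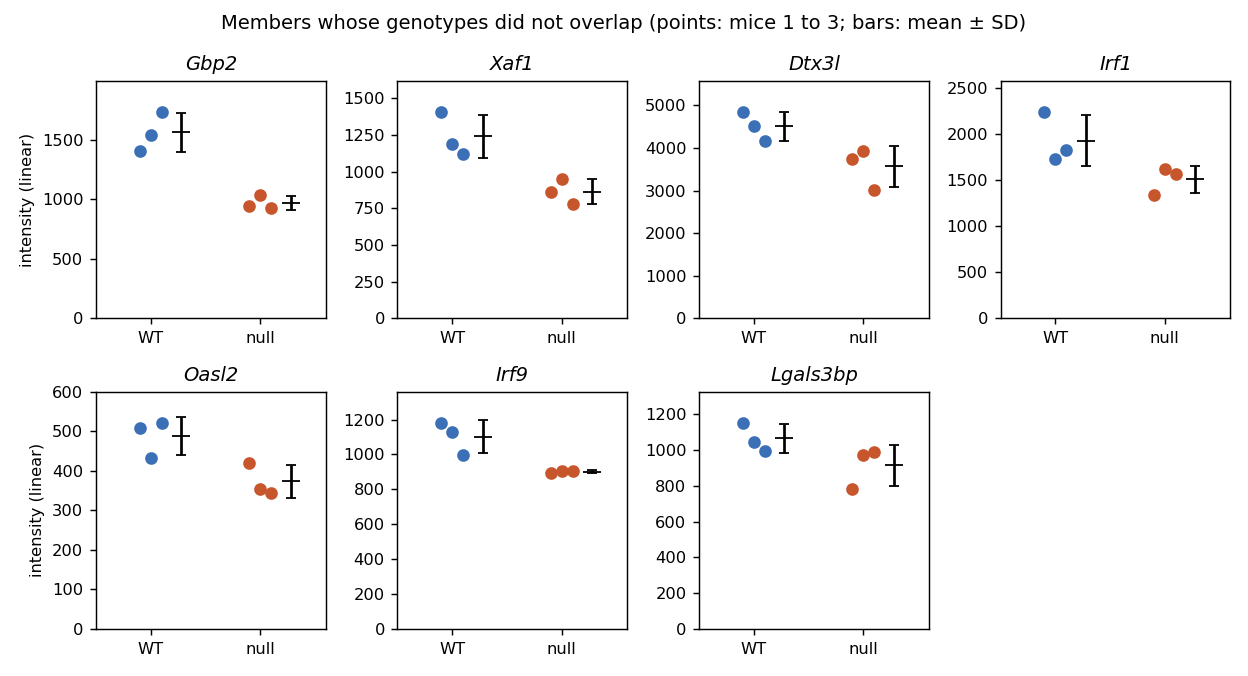
Linear intensity of the 7 members whose genotypes did not overlap, with a point for each mouse (mice 1 to 3 from left to right) and the mean ± SD beside them (n = 3 per genotype). The gap is widest for Gbp2, with 1409 to 1734 in Runx1-WT and 925 to 1034 in Runx1-null mice, and narrow for Lgals3bp, with 997 against 989 at its edge.

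PARP9, PARP14 and DTX3L form a group of proteins that attach ADP-ribose or ubiquitin, and DTX3L is the ubiquitin ligase that pairs with PARP9. All 3 genes were below 0, with a median log2 difference of -0.36 that stayed between -0.42 and -0.23 when any 1 mouse was left out. Dtx3l read 4847, 4522 and 4158 in the Runx1-WT mice and 3753, 3940 and 3018 in the Runx1-null mice. All Runx1-null mice were below the lowest Runx1-WT mouse, and they stayed so in each of the 3 scalings. The means were 4509 ± 344 and 3570 ± 488 (SD, n = 3), a log2 difference of -0.34 ± 0.13 with a 95% limma interval of -0.65 to -0.04 (limma, unadjusted p = 0.0328, adjusted p = 1). The second Dtx3l probe set was also lower without overlap, at -0.27 ± 0.10.

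Parp9 read 1344, 1170 and 1869 in the Runx1-WT mice and 921, 1069 and 1279 in the Runx1-null mice. Runx1-null mouse 3 exceeded Runx1-WT mouse 2, and the log2 difference was -0.41 ± 0.23 (exact permutation p = 0.2), or -0.22 without Runx1-WT mouse 3. Parp14 overlapped more widely, at 1340, 1142 and 818 against 873, 1072 and 637, and its log2 difference was -0.36 ± 0.27 with all mice and -0.56 without Runx1-WT mouse 3.

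Among the members grouped by no shared family, Xaf1, a proapoptotic interferon target, read 1407, 1190 and 1123 in the Runx1-WT mice and 861, 950 and 781 in the Runx1-null mice. The genotypes were apart as deposited and in both other scalings. The means were 864 ± 84.6 in Runx1-null and 1240 ± 148 in Runx1-WT mice (SD, n = 3). The log2 difference was -0.52 ± 0.18, which is 69.8% of the Runx1-WT level, with a 95% limma interval of -0.94 to -0.10 (limma, unadjusted p = 0.0214, adjusted p = 1). Leaving out Runx1-WT mouse 3 gave -0.59, and the mean of its probe sets, of which the second is below the filter, gave -0.27. Lgals3bp, a secreted glycoprotein that binds galectins, read 1153, 1046 and 997 against 783, 972 and 989, a log2 difference of -0.23 ± 0.18. Its genotypes were set apart by the gap between 997 and 989, which is smaller than either SD (80.1 and 115), and were not apart after quantile normalization or median scaling. Ifi35 read 4377, 4213 and 4151 against 3224, 3796 and 4560 (log2 difference -0.15 ± 0.14), with Runx1-null mouse 3 the highest of all mice, and Rtp4 had a log2 difference of -0.11 ± 0.22.

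The OAS family includes the enzymes that make short oligoadenylates from ATP on sensing double-stranded RNA, which activate RNase L. Of its members above the filter, Oasl2 alone was separated. It read 508, 433 and 522 in the Runx1-WT mice and 421, 355 and 345 in the Runx1-null mice, with 421 in Runx1-null mouse 1 just under 433 in Runx1-WT mouse 2. The log2 difference was -0.38 ± 0.19, with a 95% limma interval of -0.85 to 0.08 (exact permutation p = 0.1). Oas1a and Oasl1 differed by -0.01 ± 0.33 and -0.03 ± 0.35, so the family median was -0.03, and it was 0.03 after quantile normalization, 0.06 after median scaling and 0.17 without Runx1-WT mouse 3. Oas3, below the filter and so without a limma test, read 102, 69.4 and 70.2 against 60.1, 49.2 and 38.5, a log2 difference of -0.71 without overlap. Oas2, also dim, read 64.1 to 74.0 against 54.7 to 68.6 and overlapped.

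Of the 4 remaining antiviral effectors above the filter, 3 were below 0. The sign of their median depended on the scaling and on the mice used. Rsad2 encodes viperin, which makes a chain-terminating nucleotide, and read 646, 854 and 1225 in the Runx1-WT mice and 522, 572 and 870 in the Runx1-null mice. Runx1-WT mouse 3 was the highest and Runx1-null mouse 3 exceeded the other Runx1-WT mice. The log2 difference was -0.46 ± 0.31 (exact permutation p = 0.3), or -0.22 without Runx1-WT mouse 3, and -0.48 ± 0.27 by a second probe set. Samhd1, a nucleotide hydrolase that starves reverse transcription, read 4447, 3807 and 4605 against 3624, 4081 and 4403, a log2 difference of -0.09 ± 0.12 whose 95% limma interval ran from -0.37 to 0.19. Bst2, which tethers budding virus, and Cmpk2, a mitochondrial nucleotide kinase, differed by 0.12 ± 0.25 and -0.06 ± 0.30. Over these 4 genes the median was -0.07, and it was 0.02 after median scaling and 0.06 without Runx1-WT mouse 3. Mx1, below the filter, read 56.8, 48.6 and 52.4 against 33.2, 35.8 and 33.2, a log2 difference of -0.62 without overlap, and Mx2 was below the floor in 4 of 6 mice, at 8.73 to 30.3 over all. With Oas3 and Mx1, 9 of the 35 members were lower without overlap, against 3.06% of all 18194 genes, and 0 were higher, against 1.89%.

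The IFIT proteins bind viral RNA through its 5′ end. Ifit1, with the pair of ISRE-like matches shown above, read 446, 262 and 577 in the Runx1-WT mice and 364, 344 and 429 in the Runx1-null mice. All Runx1-null mice lay within the Runx1-WT range, and the log2 difference of -0.11 ± 0.32 became 0.14 without Runx1-WT mouse 3. Ifit2 read 127, 53.9 and 195 against 172, 154 and 172, the member furthest above 0 at 0.59 ± 0.48, with a 95% limma interval of -0.53 to 1.72. Without Runx1-WT mouse 3 it was higher in every Runx1-null mouse, at 1.01. Ifit3 read 88.3 to 176 against 94.5 to 140, with a log2 difference of -0.19 ± 0.35. The family median was -0.11, or 0.14 without Runx1-WT mouse 3.

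In the ISG15 system, Usp18, the protease that removes ISG15 and blocks IFNAR2 signalling, read 1070, 1333 and 469 in the Runx1-WT mice and 535, 668 and 1045 in the Runx1-null mice. Its Runx1-WT mouse 3 was the lowest of the 6, as for Stat2, and the log2 difference was -0.28 ± 0.44, -0.73 without that mouse and 0.02 without Runx1-WT mouse 2. Herc6, the mouse ISG15 ligase, read 223, 155 and 170 against 151, 125 and 186 (-0.25 ± 0.28).

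The cytosolic RNA sensors Ifih1 (MDA5) and Ddx58 (RIG-I) each had a log2 difference of -0.11, with SEs of 0.23 and 0.22. Trim25, the ubiquitin ligase that acts on RIG-I, read 5843, 4208 and 5776 in the Runx1-WT mice and 4065, 5046 and 4809 in the Runx1-null mice. All Runx1-null mice but the first lay within the Runx1-WT range, and the log2 difference was -0.18 ± 0.15 (95% limma interval -0.54 to 0.19), or -0.07 by the mean of its probe sets. For 13 members with several probe sets above the filter, 11 had the same sign in all of them, and Samhd1 and Trim25 did not. Of the 4 Samhd1 probe sets above the filter, the dimmest was higher without overlap in Runx1-null mice, at 0.31 ± 0.22. The others were below 0 and overlapped.

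Members whose promoter windows held a motif did not have the larger median difference. Of the 26 members above the filter with a window, the 12 with ISRE-like letters had a median log2 difference of -0.15 and the 14 without had -0.22. Of the 7 separated members, Gbp2 held ISRE-like letters, Irf1 held GAS-like letters, and the other 5 held neither in these windows. The 7 members with GAS-like letters had a median of -0.09, beside -0.23 for the other 19.

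Other genes of the pathway were followed in a list of 84 names, of which 77 were found. They stand for 76 genes, since Ifi27 and Ifi27l1 name the same gene in the annotation, and 67 of these were above the filter. Limma called 0 of the 67 at an adjusted p under 0.05, and 2 had an unadjusted p under 0.05, both lower in Runx1-null mice. By that same unadjusted limit, 1.28% of all 12152 genes were lower and 0.642% were higher. In all, 46 of 67 were below 0 with a median log2 difference of -0.07, beside 55.4% below 0 and a median of -0.02 over all genes. The pathway median was -0.05 after quantile normalization (all genes 0.02) and 0.02 after median scaling (all genes 0.07). Without overlap, 5 were lower (Zbp1, Sp100, Ddx60, Psmb8 and Psmb9), or 7.46%, against 3.47% of all genes, and 2 were higher (Irf3 and Ptpn11), against 2.08%. After quantile normalization or median scaling Zbp1 and Psmb8 were no longer separated. The 4 that were lower in both were Pias1, Sp100, Ddx60 and Psmb9, or 5.97%, against 2.58% and 1.17% of all genes. After quantile normalization 3 were higher without overlap (Il10rb, Irf3 and Ptpn11), against 2.84% of all genes. After median scaling 2 were higher (Ifngr1 and Il10rb), against 2.31%, and Irf3 and Ptpn11 overlapped.

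Among genes upstream of the response, 3 of 6 receptor chains, 1 of 4 kinases and STATs and 6 of 11 sensing genes were below 0. So were 1 of 5 IRF genes, 3 of 5 inhibitors and both ligands above the filter (Il6 and Il15), beside 55.4% of all genes. No difference between these groups and the targets was tested. Ifna1, Ifna2, Ifna4, Ifnb1 and Ifng were below the filter, with no value above 67.5. Ifnar1, the first type I receptor chain, read 1450, 1095 and 1793 in the Runx1-WT mice and 1730, 1910 and 1122 in the Runx1-null mice (log2 difference 0.13 ± 0.27), and its second probe set gave -0.84 ± 0.51. Ifnar2 read 1892, 1775 and 1600 against 1329, 1696 and 1443 (-0.24 ± 0.16). As deposited, all 6 receptor chains overlapped between genotypes. Il10rb was higher without overlap in Runx1-null mice after quantile normalization and after median scaling, and Ifngr1 was so after median scaling.

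For the interferon gamma receptor, Ifngr1 read 1921, 1581 and 1893 in the Runx1-WT mice and 2594, 2688 and 1608 in the Runx1-null mice (log2 difference 0.32 ± 0.23), and Ifngr2 read 2044, 1967 and 2595 against 1917, 2577 and 1475 (-0.17 ± 0.23). Runx1-null mouse 3 was lowest or second lowest for both, apart from the other Runx1-null mice. The interferon lambda receptor chains, on which many epithelia rely, were Ifnlr1 at 1734, 1773 and 1099 against 1145, 1525 and 1109 (-0.27 ± 0.25) and Il10rb at 591 ± 46.1 against 671 ± 86.3 (SD, n = 3; log2 difference 0.18 ± 0.19). Of the kinases and STATs, Jak1, Jak2 and Tyk2 were above 0 and Stat3 was at -0.03 ± 0.11. Irf3, which responds to the sensors without interferon, read 1558, 1373 and 1481 against 1624, 1820 and 1751, a log2 difference of 0.24 ± 0.14 (exact permutation p = 0.1).

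The further targets, genes induced by interferon that are not members, were below 0 for 30 of 34, with a median log2 difference of -0.21. These values were 22 of 34 and -0.11 after median scaling, and 24 of 34 and -0.13 without Runx1-WT mouse 3. Of all genes, 55.4% were below 0 as deposited, 35.3% after median scaling and 51.5% without Runx1-WT mouse 3. Psmb9, an immunoproteasome subunit that IRF1 induces, read 2078, 2166 and 1726 in the Runx1-WT mice and 1147, 1476 and 1160 in the Runx1-null mice. The genotypes were far apart, at 1990 ± 233 and 1261 ± 186 (SD, n = 3), with a log2 difference of -0.66 ± 0.18 and a 95% limma interval of -1.08 to -0.24 (limma, unadjusted p = 0.00738, adjusted p = 1). Psmb8, another such subunit, read 2546, 2636 and 2130 against 1558, 2119 and 2003, a log2 difference of -0.37 ± 0.17, or -0.19 by the mean of its probe sets. Its Runx1-WT mouse 3 was only just above Runx1-null mouse 2.

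Zbp1, a sensor of Z-form nucleic acid that is itself induced by interferon, read 548, 563 and 562 in the Runx1-WT mice and 227, 333 and 470 in the Runx1-null mice. The Runx1-WT mice were nearly alike and all above the Runx1-null mice as deposited, though not after quantile normalization or median scaling (-0.72 and -0.67), and the log2 difference was -0.76 ± 0.29, with a 95% limma interval of -1.44 to -0.08 (limma, unadjusted p = 0.033, adjusted p = 1). Its second probe set was also lower without overlap, at -0.90 ± 0.36. Ddx60, a helicase of the antiviral response, read 136, 94.3 and 91.3 against 58.8, 73.9 and 74.4 (-0.62 ± 0.31, or -0.40 by the mean of its probe sets).

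Some targets were far higher in Runx1-WT mouse 3 than in any other mouse. Cxcl9, a chemokine that attracts T cells and is induced by interferon gamma, read 77.1, 84.0 and 639 in the Runx1-WT mice and 142, 127 and 100 in the Runx1-null mice. Cxcl10, a related chemokine, read 477, 305 and 1509 against 870, 773 and 539, and Ifi47, a GTPase, 723, 356 and 1527 against 627, 705 and 380. The same mouse held the high values of Ptprc, Cd3e and Lyz2 given above, and the part of leukocyte RNA in these values was not tested. These 3 targets were named after their values were seen.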

How the data were processed

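RNA of YFP+ luminal MECs from 3 Runx1-null and 3 Runx1-WT mice was amplified (NuGEN Ovation V2) and hybridized to Affymetrix mouse arrays, 1 per mouse. The authors normalized all arrays with dChip, whose version is not given in the sources used here, and deposited linear intensities for 45101 probe sets. The methods describe littermates, but litters are not known per mouse and are not in the fit. An array gives no count of molecules, and precision is limited by having 3 per genotype.

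Of the probe sets, 34958 had 1 gene symbol in the platform annotation, 932 several and 9211 none. Intensities below the pooled 20th percentile (19.335, which 18.8% to 22.3% of each array fell under) were set to it before log2. The probe set with the highest mean stood for a gene, and 12152 of 18194 genes had a mean at or above the 40th percentile (73.475). Limma 3.58.1 in R 4.3.3 (lmFit, eBayes with trend) tested these, with Benjamini-Hochberg adjustment over all tested genes. For single values an exact permutation test (two-sided) was used. Its p is the share of ways to assign the mice to genotypes that give a mean difference at least as large. The limma p weighs a difference against the spread between mice, moderated over all tested genes. Code was tested on simulated data.

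The members and lists were chosen with earlier results of these data known. The genes named are the 4 transcription factors, the 10 members with the smallest unadjusted p, the separated members, the 3 brightest and the brightest of each other role group, the 4 pathway genes with the smallest p, and the receptors; other members are given more briefly. The settings varied were the filter (none, or the 60th percentile), the scaling (quantile, median), a pseudocount of 16 for the floor, the variance model, averaging of probe sets, a block for low against high animal numbers, the methods' own test, a threshold of 0.1 and the mouse left out.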

Additional observations from a re-analysis of the deposited data

How the results depend on the processing

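Of the members, 0 were called at an adjusted p under 0.05 in every alternative run, as were 0 of all tested genes, and the 0.1 threshold added none. The members' median log2 difference stayed below 0 in every alternative, between -0.29 and -0.17 with each mouse left out in turn. It was -0.28 in the 4 mice with low animal numbers and -0.26 in the other 2, settings added after seeing the data. In those 4 mice 21 of 31 members were below 0, as were 5865 of all 12152 genes. The methods' own test gave 335 genes and 4 members with p at or under 0.05, and 0 once adjusted. The number of members separated between genotypes in either direction was 2 after median scaling and 7 to 16 with each mouse left out, where fewer mice are separated more easily. Of all genes, 1.17% were lower without overlap and 2.31% higher after median scaling. With each mouse left out, 4.28% to 13.3% of all genes were lower and 442 to 1507 of the 12152 were higher. At an unadjusted p under 0.05, limma gave 234 genes, and 535 with no filter and 123 after median scaling. It gave 305 genes with animal numbers (low or high) as a block and 78 to 818 with each mouse left out. For members these counts were 3, then 8 with no filter, 1 after median scaling, 5 with animal numbers (low or high) as a block and 1 to 4 with each mouse left out.

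By the mean of all probe sets, limma gave 2 members with an unadjusted p under 0.05, both lower, where it gave 174 genes lower and 94 higher of all 12152. In that run 6 members were separated, all lower, or 19.4%, against 3.69% of all genes. Directions turned in the following cases, whose cause was not tested. The median of the further pathway genes was 0.02 after median scaling. The OAS family median was 0.03 after quantile normalization and 0.06 after median scaling, and ran from -0.22 to 0.17 with each mouse left out (0.17 without Runx1-WT mouse 3, 0.10 if Runx1-null mouse 2 was omitted). The IFIT family median ran from -0.43 to 0.14 (without Runx1-WT mouse 3), and that of the other antiviral effectors from -0.19 to 0.06 (without Runx1-WT mouse 3) and was 0.02 after median scaling. With each mouse left out, Usp18 ran from -0.73 to 0.02, Ifit1 from -0.43 to 0.14, Ifnar1 from -0.06 to 0.36 (with -0.02 if Runx1-null mouse 2 was omitted) and Ifngr2 from -0.38 to 0.02. By the mean of all probe sets Ifnar1 was at -0.36, Ifnar2 at 0.09 and Il10rb at -0.10. The other 410 of 418 values of 28 named genes kept their direction. No paired analysis was possible because the labels give no pairs of mice and no shared replicate numbers, and the block on animal numbers is no pairing. Dim probe sets limit Oas2, Oas3, Mx1 and Mx2.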
